A study of Rattus norvegicus with 12 samples.

Results

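The 10 genes described here, Lhfpl3, Fez1, Stard13, Anks1b, Enc1, Foxs1, Srpx, Ccdc88c, Cdca7 and Rassf4, are little studied in cartilage and were chosen by their measured log2 differences between surgeries, since they differed between osteoarthritis (OA) and sham cartilage at 8 weeks after surgery and mostly little at 2 weeks. They were found as the rows of the expression table whose only gene symbol is 1 of these 10, which gave 17 of 31099 probe sets, and 10 of 14218 distinct symbols. A probe set is the group of array probes that reads 1 transcript. Of the 17 probe sets, 13 had a log2 value above 4 in at least 3 of the 12 arrays, and each of the 10 genes had at least 1 of these. No size is stated for the difference that chose the genes, so no value just inside or outside a threshold can be given.

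The RNA came from knee articular cartilage of rats, and each of 4 groups had 3 Affymetrix arrays. The groups were cartilage taken 8 weeks after OA surgery, 8 weeks after the sham operation, 2 weeks after OA surgery and 2 weeks after the sham operation. All animals had thus been operated on, and sham is the control in each comparison. The labels refer for the operation to an earlier publication that was not used here. The strain, age and sex of the rats are not given in the sources used here, and nothing says whether arrays of a group came from separate animals, so p-values measure only the spread between these arrays.

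The cartilage markers fixed for this work had 7 of 10 genes on the array under a single symbol, and all 7 were above log2 4. The type II collagen gene Col2a1, which defines cartilage, averaged 16.00 in OA and 16.20 in sham at 8 weeks. In a principal component analysis the 8-week and 2-week arrays lay apart along the main axis, which took up 57.4% of the variance. OA 8 weeks replicate 1 had the lowest mean correlation with the other arrays of its group (0.986, against 0.991 to 0.996 for the other 11 arrays).

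Articular cartilage holds 1 resident cell type, the chondrocyte, whose behaviour in OA depends on its cytoskeleton, its surface receptors and its transcription program. The 10 genes are sorted here into 4 general roles, which these data do not show for cartilage. Fez1, Anks1b, Stard13 and Enc1 encode scaffolds and regulators of transport and of the actin cytoskeleton, most of them studied in neurons. Lhfpl3 and Srpx encode a membrane and a secreted protein, Ccdc88c and Rassf4 encode adaptors of signalling pathways, and Foxs1 and Cdca7 encode nuclear proteins.

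Upstream sequence is shown for the 6 of these genes with the most bases of the window outside the annotated gene, at least 144. Members that move the same way can then be compared in the bases before the gene. Stard13 and Rassf4 had fewer such bases and are not printed. Windows of 250 bases before the start site were available for 8 members in the GRCr8 rat build, and the bases of each window outside the annotated gene are printed 5′ to 3′ on the strand of the gene. Capitals mark matches, on either strand, to 7 short motifs, namely the GC box GGGCGG, the TATA box TATAAA, the CCAAT box, the hypoxia and E-box core ACGTG, the AP-1 motif TGANTCA, the TEAD motif GGAATG and the forkhead motif TGTTTAC. The first 3 genes read higher in OA at 8 weeks and the last 3 lower. The Lhfpl3 window was found by symbol, under another gene ID than in the array annotation.
Lhfpl3, chr4:13271440-13271624, minus strand: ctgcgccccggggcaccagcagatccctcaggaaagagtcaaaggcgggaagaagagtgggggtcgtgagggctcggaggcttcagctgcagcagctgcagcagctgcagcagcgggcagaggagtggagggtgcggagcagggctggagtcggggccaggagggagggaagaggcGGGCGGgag
Fez1, chr8:44733135-44733287, plus strand: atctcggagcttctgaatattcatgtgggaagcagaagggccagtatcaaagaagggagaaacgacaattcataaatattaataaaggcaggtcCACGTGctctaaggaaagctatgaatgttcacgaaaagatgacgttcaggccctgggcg
Anks1b, chr7:26200399-26200648, plus strand: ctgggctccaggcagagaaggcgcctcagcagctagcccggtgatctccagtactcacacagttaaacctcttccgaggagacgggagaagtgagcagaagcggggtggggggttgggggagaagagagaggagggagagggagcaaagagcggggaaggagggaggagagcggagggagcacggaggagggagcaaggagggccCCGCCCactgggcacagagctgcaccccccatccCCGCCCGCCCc
Srpx, chrX:15349354-15349497, plus strand: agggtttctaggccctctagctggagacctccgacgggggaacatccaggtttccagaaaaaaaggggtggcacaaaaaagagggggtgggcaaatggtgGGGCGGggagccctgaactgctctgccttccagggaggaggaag
Ccdc88c, chr6:126019163-126019412, minus strand: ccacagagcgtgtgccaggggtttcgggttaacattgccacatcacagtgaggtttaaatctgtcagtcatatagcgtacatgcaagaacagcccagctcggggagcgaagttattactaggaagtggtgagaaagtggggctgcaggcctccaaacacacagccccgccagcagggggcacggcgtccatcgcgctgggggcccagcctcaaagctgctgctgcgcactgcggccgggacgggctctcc
Cdca7, chr3:77730065-77730314, plus strand: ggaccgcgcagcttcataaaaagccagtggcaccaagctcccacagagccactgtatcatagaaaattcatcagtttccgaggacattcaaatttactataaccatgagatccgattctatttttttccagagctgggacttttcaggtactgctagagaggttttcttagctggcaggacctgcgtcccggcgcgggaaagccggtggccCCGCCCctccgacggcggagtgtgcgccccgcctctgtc

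Over the full 250-base windows, GGGCGG was found in 6 of 8 members (Lhfpl3, Fez1, Anks1b, Srpx, Cdca7 and Rassf4) and in 30.5% of the 33469 windows of all genes. ACGTG was found in 3 of 8, namely Lhfpl3, Fez1 and Stard13, and in 16.6% of all windows. These 3 read higher in OA at 8 weeks, as did Anks1b, which had no ACGTG match. Matches of both kinds can lie outside the printed bases. CCAAT was found in 1 member, Stard13, and in 34.0% of all windows. The other 4 motifs had no match in the 8 windows, with shares of 12.9% (TATAAA), 6.34% (TGANTCA), 12.1% (GGAATG) and 3.22% (TGTTTAC) over all windows. The member windows held 54.4% to 70.0% G and C, against a median of 51.2% over all windows. The motifs were chosen with the sequences in view, and a match describes letters and not a binding site. Enc1 and Foxs1 had no entry in the table.

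At 8 weeks Lhfpl3, Fez1, Stard13 and Anks1b read higher in OA, by 1.76- to 7.08-fold, and Enc1, Foxs1, Srpx, Ccdc88c, Cdca7 and Rassf4 read lower. For each gene the brightest probe set past the filter stands for it, and values are log2 values as deposited. In all 10 the 3 OA arrays lay apart from the 3 sham arrays at 8 weeks, 4 above and 6 below, where 12.3% of the 15934 probe sets past the filter lay above and 12.8% below. They also lay apart from all 9 other arrays, 4 above and 6 below, as did 7.94% and 5.58% of the probe sets. Since these values chose the genes, nothing is read from the counts and no test is given. Errors beside differences are standard errors from a limma fit to all 4 groups, and the 8-week and 2-week comparisons share no arrays.

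**Figure D1:**
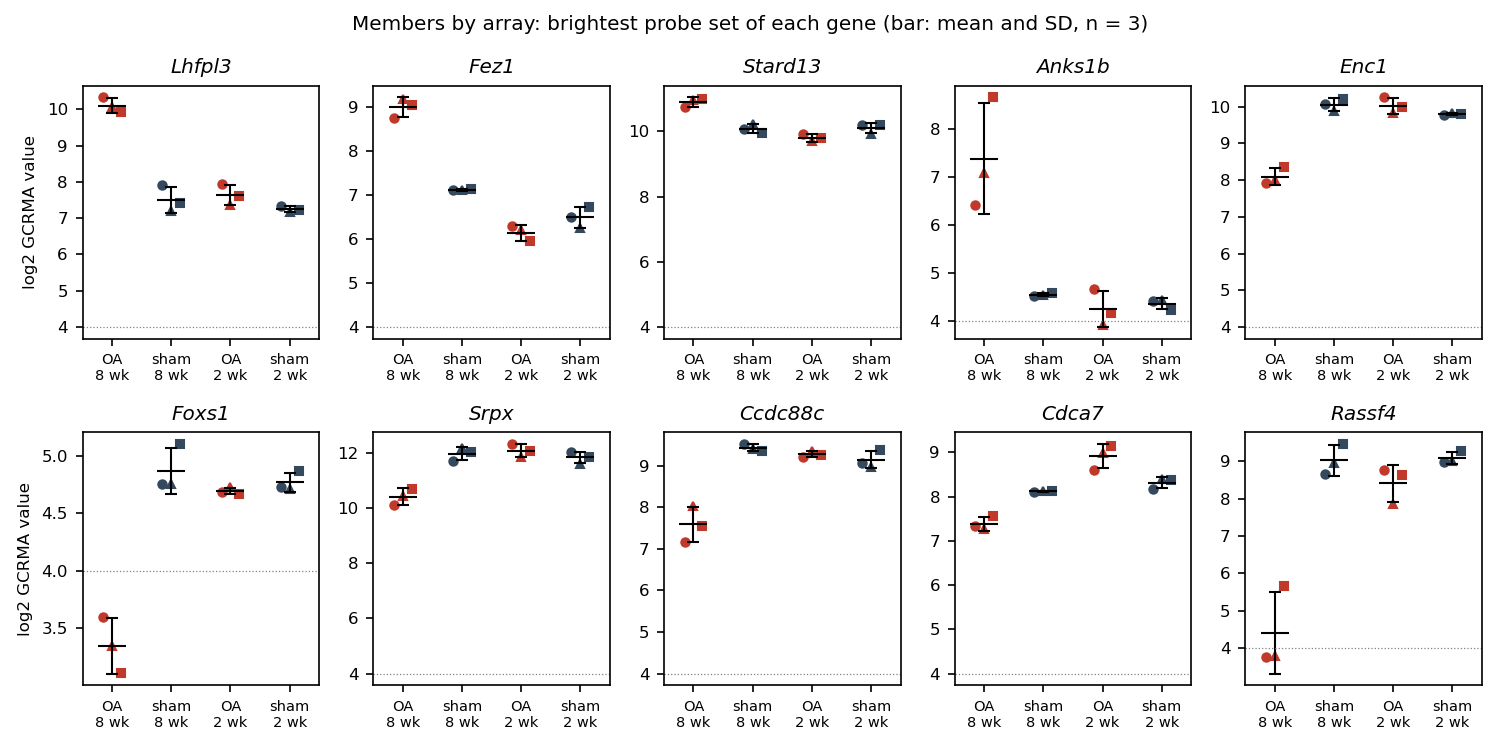
Log2 value (vertical axis) of the brightest probe set of each of the 10 genes in the 12 arrays, by group, with circles, triangles and squares for replicates 1, 2 and 3, a bar for the mean and SD, and a dotted line at the filter level of 4. The 3 OA arrays at 8 weeks stand apart from the other 9 arrays in every panel, above them in 4 genes and below them in 6.

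Among the transport and cytoskeleton genes, Anks1b, which encodes an ankyrin repeat scaffold found at synapses, read 6.41, 7.07 and 8.65 in the OA arrays at 8 weeks (probe set 1390896_at), against 4.53, 4.54 and 4.59 in the sham arrays. The OA arrays lay above all sham arrays but varied far more, with an SD of 1.15 against 0.03 in sham. The difference was 2.82 ± 0.45, or 7.08-fold, while at 2 weeks Anks1b differed by -0.11 ± 0.45, with 4.67, 3.92 and 4.18 in OA and 4.42, 4.45 and 4.23 in sham. Its sham level lay close to log2 4, where GCRMA values compress differences.

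All 3 probe sets of Anks1b read higher in OA at 8 weeks. The second, 1379564_at, read 4.93, 6.23 and 6.71 in OA against 4.11, 3.96 and 4.01 in sham (1.93 ± 0.35). The third, 1395307_at, read 4.99, 7.21 and 7.65 in OA against 4.41, 4.45 and 3.86 in sham (2.38 ± 0.54). Replicate 1 had the lowest and replicate 3 the highest OA value in all 3 probe sets. The third passed the filter in 5 arrays, all of them at 8 weeks.

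Fez1, an adaptor that links cargo to the motor kinesin-1 in axons, read in probe set 1367918_at 8.75, 9.19 and 9.05 in OA at 8 weeks, against 7.11, 7.11 and 7.14 in sham. No array of 1 group came near the other, and the difference was 1.88 ± 0.15, or 3.67-fold. At 2 weeks Fez1 pointed the other way and the groups overlapped, with 6.29, 6.20 and 5.95 in OA against 6.50, 6.25 and 6.73 in sham (-0.35 ± 0.15). Fez1 was also the member whose sham level moved most with time among the brightest probe sets, with a mean of 7.12 at 8 weeks and 6.50 at 2 weeks.

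Stard13, a GTPase-activating protein with a START domain, had the smallest difference of the 4 genes that read higher. Probe set 1391871_at read 10.74, 10.96 and 10.99 in OA at 8 weeks, against 10.07, 10.22 and 9.96 in sham (0.81 ± 0.12, 1.76-fold). At 2 weeks all 3 OA arrays lay below all 3 sham arrays, with 9.91, 9.69 and 9.78 against 10.21, 9.92 and 10.19 (-0.31 ± 0.12). The OA arrays of Stard13 were thus the lowest of the series at 2 weeks and the highest at 8 weeks.

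Enc1, a kelch protein that binds actin, read in probe set 1388666_at 7.92, 8.00 and 8.36 in OA at 8 weeks, against 10.06, 9.87 and 10.21 in sham. The difference was -1.95 ± 0.15, or 3.87-fold lower in OA, with similar spread in both groups (SD 0.24 in OA and 0.17 in sham). At 2 weeks the OA arrays read 10.25, 9.82 and 9.97 and the sham arrays 9.76, 9.83 and 9.81 (0.22 ± 0.15), overlapping. The other 3 probe sets of Enc1 had 0 of 12 arrays above log2 4 and are no measure of the gene here.

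Of the membrane and secreted proteins, Lhfpl3, a member of the tetraspan LHFPL family (probe set 1383419_at), read 10.32, 10.05 and 9.94 in OA at 8 weeks, against 7.90, 7.19 and 7.41 in sham. This difference of 2.60 ± 0.20, or 6.08-fold, was even across the OA arrays, whose range was 0.39. At 2 weeks the OA arrays of Lhfpl3 also lay above sham, by less, with 7.93, 7.37 and 7.62 against 7.33, 7.18 and 7.22 (0.39 ± 0.20). Lhfpl3 and Cdca7 were the 2 members whose OA arrays all lay above sham at 2 weeks, where 1.91% of the 15934 probe sets did so. Stard13 and Rassf4 were the 2 whose OA arrays all lay below sham, against 3.46% of the probe sets. These counts belong to a comparison that the choice of genes used, and nothing is read from them.

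Srpx, a secreted protein with sushi repeats encoded on the X chromosome (probe set 1368671_at), read 10.10, 10.45 and 10.70 in OA at 8 weeks, against 11.72, 12.20 and 12.03 in sham (-1.57 ± 0.19, 2.96-fold lower in OA). At 2 weeks its values overlapped, with 12.33, 11.86 and 12.09 in OA against 12.03, 11.62 and 11.88 in sham (0.25 ± 0.19). The 3 OA arrays at 8 weeks were the lowest of the series for Srpx.

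Of the signalling adaptors, Rassf4, a RAS-association domain protein of the RASSF family, had the largest 8-week difference of the 10 genes. Its brightest probe set, 1374284_at, read 3.77, 3.80 and 5.67 in OA at 8 weeks, against 8.65, 8.95 and 9.46 in sham. In OA, replicates 1 and 2 of Rassf4 lay under log2 4 and replicate 3 well above it, so the difference of -4.61 ± 0.47 is not exact in size. At 2 weeks the OA arrays lay a little below sham, with 8.75, 7.85 and 8.62 against 8.98, 9.02 and 9.26 (-0.68 ± 0.47).

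The second Rassf4 probe set, 1378321_at, read 3.83, 4.91 and 3.97 in OA at 8 weeks, against 5.38, 6.87 and 7.68 in sham, a smaller difference of -2.41 ± 0.49. The probe sets disagreed on the sham arrays over time. The brightest had sham means of 9.02 at 8 weeks and 9.09 at 2 weeks, while the second had 6.65 at 8 weeks and 8.55 at 2 weeks. The remaining probe set, 1391593_at, was above log2 4 in 1 array and did not pass the filter.

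Ccdc88c, whose product Daple binds Dishevelled and activates inhibitory G proteins (probe set 1383935_at), read 7.17, 8.03 and 7.55 in OA at 8 weeks, against 9.52, 9.40 and 9.36 in sham. The OA arrays all lay below sham but were more spread, with an SD of 0.43 against 0.08 in sham, and the difference was -1.84 ± 0.19 (3.58-fold lower in OA). At 2 weeks the groups overlapped, with 9.20, 9.35 and 9.25 in OA against 9.06, 8.98 and 9.37 in sham (0.13 ± 0.19).

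Of the nuclear proteins, Cdca7, which helps the remodeller HELLS to maintain DNA methylation and is induced in dividing cells (probe set 1374540_at), read 7.33, 7.28 and 7.56 in OA at 8 weeks, against 8.11, 8.13 and 8.12 in sham (-0.73 ± 0.14, 1.66-fold lower in OA). At 2 weeks the direction was opposite without overlap, with 8.61, 9.00 and 9.14 in OA against 8.17, 8.40 and 8.37 in sham (0.60 ± 0.14). Cdca7 was thus highest in OA at 2 weeks and lowest in OA at 8 weeks. Of the 11 measured markers of dividing cells, 11 had values below sham in OA at 8 weeks (median -0.90), with 1 past the limma test, and 11 had values above sham at 2 weeks (median 0.45), with 0 past it. Some of these differences were near 0, as in Pcna at 8 weeks (-0.03) and Birc5 at 2 weeks (0.0003). Their part in the values of Cdca7 was not tested.

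Foxs1, a forkhead transcription factor (probe set 1389404_at), read 3.59, 3.34 and 3.10 in OA at 8 weeks, against 4.75, 4.76 and 5.11 in sham (-1.53 ± 0.14). All OA values of Foxs1 at 8 weeks lay under log2 4 and all 9 other arrays between 4.67 and 5.11, so that the gene passed the filter through the other groups and the size of its difference is not exact. At 2 weeks it read 4.69, 4.73 and 4.67 in OA and 4.73, 4.72 and 4.87 in sham (-0.08 ± 0.14).

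**Figure D2:**
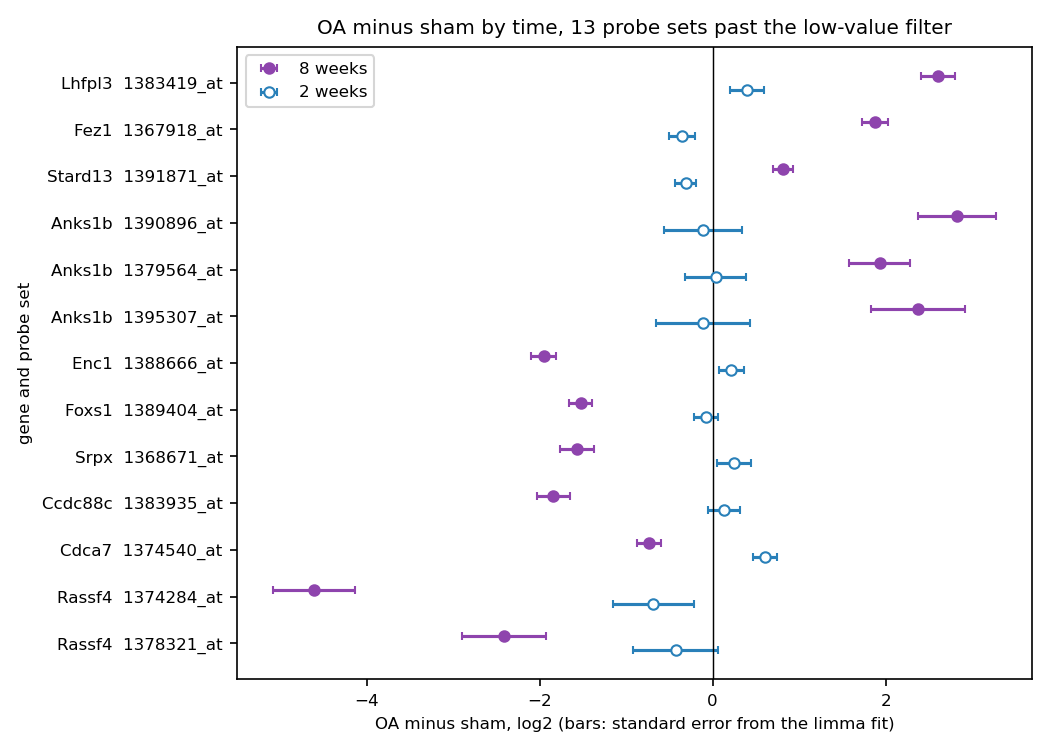
OA minus sham difference in log2 units (horizontal axis) at 8 weeks (filled) and at 2 weeks (open) for the 13 probe sets of the 10 genes that passed the filter, with standard errors from the limma fit. At 8 weeks 6 probe sets lie above 0 and 7 below, from -4.61 (Rassf4) to 2.82 (Anks1b), and at 2 weeks all lie between -0.68 (Rassf4) and 0.60 (Cdca7).

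**Figure D3:**
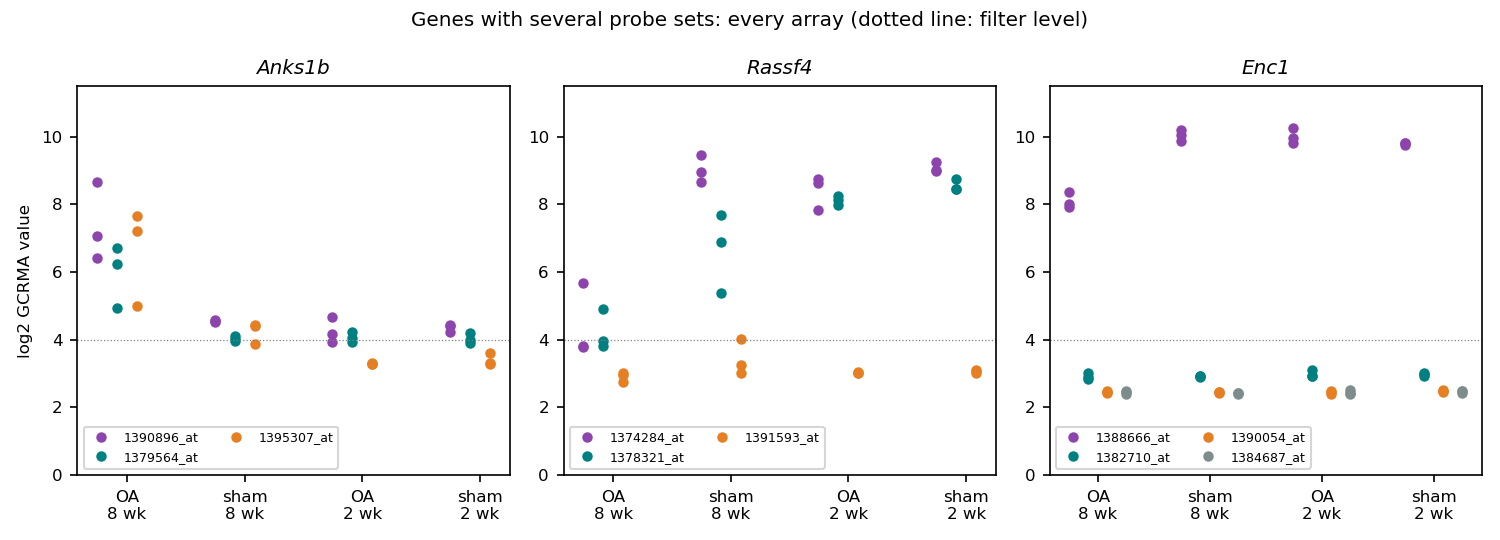
Log2 value (vertical axis) in each array, by group, for every probe set of the genes with more than 1, Anks1b, Rassf4 and Enc1, with a dotted line at the filter level of 4. The 3 Anks1b probe sets are all higher in OA at 8 weeks, 2 Rassf4 probe sets are lower, and 3 Enc1 probe sets stay under 4 in every array.

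The spread between arrays was uneven in these genes. The SD was larger in OA than in sham at 8 weeks in 9 of 10 members, against 55.5% of all probe sets past the filter. It was larger in OA at 8 than at 2 weeks in 8 of 10, against 50.6%. In sham it was larger at 8 than at 2 weeks in 5 of 10, against 50.7%. The same arrays chose the genes, so nothing is read from these counts. The fit takes 1 spread per gene for all 4 groups, so the standard errors beside Anks1b and Rassf4 do not show the wider spread of OA at 8 weeks. Fewer cells of a type and less RNA per cell cannot be told apart in such bulk RNA.

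The comparison that does not set OA against sham is 8 minus 2 weeks, averaged over OA and sham. It uses the same arrays, and a gene that departs in OA at 8 weeks alone has a time average other than 0 in the same direction, so the values of the members restate in part how they were chosen and are given with no test. The change was 1.74 ± 0.11 for Fez1, 1.65 ± 0.32 for Anks1b, 1.36 ± 0.14 for Lhfpl3 and 0.54 ± 0.08 for Stard13. It was -2.03 ± 0.33 for Rassf4, -0.86 ± 0.10 for Cdca7, -0.83 ± 0.10 for Enc1, -0.77 ± 0.14 for Srpx, -0.70 ± 0.13 for Ccdc88c and -0.62 ± 0.10 for Foxs1. The median over all probe sets was 0.08, and -0.10 with array medians made equal, and 66.1% of all calls were higher, against 49.5% with added quantile normalization and 41.3% with equal medians. The 10 members kept their directions under both scalings.

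Within OA the 10 genes differed by -3.99 (Rassf4) to 3.12 (Anks1b) between 8 and 2 weeks, and within sham by -0.19 (Cdca7) to 0.62 (Fez1). The sham arrays at 8 and 2 weeks did not overlap in 4 members, above in Fez1, Anks1b and Enc1 and below in Cdca7, where 23.9% of the probe sets lay above and 11.3% below. The sham arrays also entered the comparisons that chose the genes, so these are descriptions. All 6 arrays at 8 weeks lay above all 6 at 2 weeks in Fez1 and below them in Cdca7, as did 14.0% and 6.64% of the probe sets.

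Levels of markers of other cells at 8 weeks are given as means of gene-centred log2 values over each list. All 14 measured macrophage markers were lower in OA at 8 weeks (median -2.59), 4 of them past the limma test, with list levels from -2.24 to -2.13 in OA and from -1.19 to 1.61 in sham. All 5 measured osteoclast markers were lower and passed (median -2.53), with levels from -2.56 to -1.22 in OA and 0.49 to 0.83 in sham. Of 17 measured skeletal muscle markers, 16 were higher (median 4.37), 0 passed limma and 10 had an unadjusted p under 0.05, with levels of 6.27, 3.12 and 1.90 in OA and 2.41, -2.24 and -0.29 in sham. Of 7 osteoblast and osteocyte markers 7 were lower and 3 passed (median -1.29), and of 5 endothelial markers 5 were lower (median -1.35), with 0 past limma and 4 at an unadjusted p under 0.05. By contrast the 7 cartilage markers had a median of -0.08, with 1 lower past the test. Of all 15934 probe sets past the filter, 1.51% were higher and 1.95% lower in OA at 8 weeks in the same test.

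Lists with few measured genes gave no clear level. The 3 measured adipocyte markers had a median of -0.28 (0 past limma, 1 at an unadjusted p under 0.05) and the 3 measured nerve and Schwann cell markers 0.02 (1 lower past the test). Of 7 adipocyte markers on the array, Adipoq, Plin1, Lep and Cidec never exceeded log2 4, and of 10 nerve and Schwann cell markers 7 never did, namely Nefl, Nefm, Snap25, Tubb3, Ncam1, Mbp and Sox10. The other 3 were S100b, which chondrocytes also express, Gfap and the neuronal filament gene Prph. At 8 weeks Prph averaged 4.58 in OA and 4.56 in sham, S100b 13.98 in OA and 13.86 in sham, and Gfap, the marker that passed, 5.75 in OA and 10.07 in sham. The part of nerve tissue in the values of Fez1 and Anks1b, both known from neurons, was not tested. The 8 measured smooth muscle and pericyte markers had a median of 0.18, with 0 past limma and 0 at an unadjusted p under 0.05. Itgam of the macrophage list, Calcr of the osteoclast list, Sost of the osteocyte list, Vwf of the endothelial list and Tnnt1 of the muscle list never exceeded log2 4 either.

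**Figure D4:**
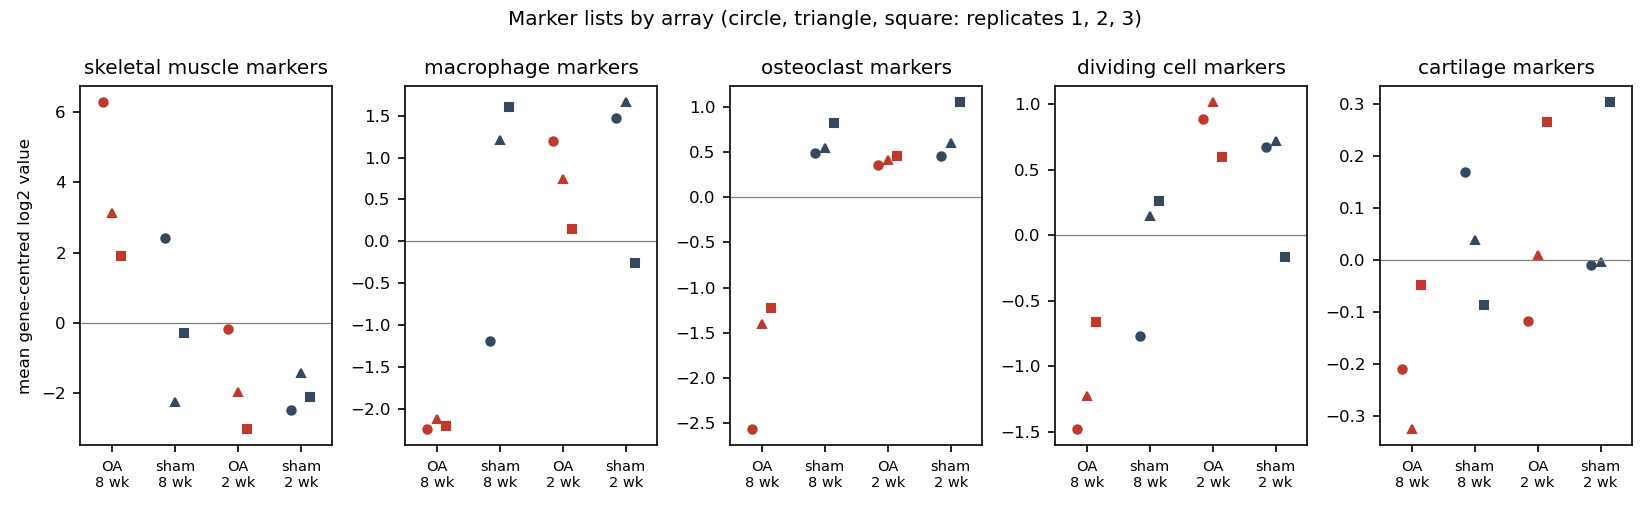
Mean gene-centred log2 value (vertical axis) of 5 marker lists in each of the 12 arrays, by group, with circles, triangles and squares for replicates 1, 2 and 3. OA arrays at 8 weeks lie lowest for macrophage and osteoclast markers, and OA 8 weeks replicate 1 lies highest for skeletal muscle markers at 6.27.

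The members differed in their order over the OA arrays at 8 weeks. From OA 8 weeks replicate 1 to replicate 3, as the muscle level fell, Lhfpl3 and Foxs1 fell too. Stard13, Anks1b, Enc1, Srpx and Rassf4 rose in that order, and Fez1, Ccdc88c and Cdca7 did neither. The levels of the osteoclast, dividing cell and nerve lists also rose in that order, and those of the endothelial and smooth muscle lists fell. The order of these arrays thus does not single out muscle. Anks1b was lowest in OA 8 weeks replicate 1 (6.41), the array with the highest muscle level, and highest in replicate 3 (8.65), the OA array with the lowest. With the muscle level as a covariate the 8-week differences were 3.38 for Anks1b, 2.15 for Lhfpl3, 1.95 for Fez1 and 0.94 for Stard13. In the same fit they were -4.01 for Rassf4, -1.95 for Enc1, -1.68 for Ccdc88c, -1.67 for Foxs1, -1.23 for Srpx and -0.57 for Cdca7. Without OA 8 weeks replicate 1 the differences were 3.31 for Anks1b, 2.49 for Lhfpl3, 2.00 for Fez1 and 0.89 for Stard13, and -4.29 for Rassf4, -1.87 for Enc1, -1.64 for Ccdc88c, -1.65 for Foxs1, -1.41 for Srpx and -0.70 for Cdca7. The part of muscle content in the values of the members was not tested.

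The second Rassf4 probe set read lowest among the sham arrays at 8 weeks in replicate 1 (5.38), which also had the lowest macrophage level of these arrays (-1.19) and the highest muscle level (2.41). The brightest Rassf4 probe set was also lowest in that array among the sham arrays, by less, at 8.65 against 8.95 and 9.46 at 8 weeks. The part of macrophage and osteoclast content in the lower values of Rassf4, Enc1, Srpx, Ccdc88c, Cdca7 and Foxs1 was not tested.

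The genes most like each member over the 12 arrays were found by the root mean square difference of gene-centred log2 values among 9176 genes, a description that again rests on the arrays that chose the members. Lhfpl3 was nearest to Cage1 (0.34) and Acss3 (0.42), and Fez1 to Gem (0.33), a small GTPase of the RGK family, and the homeobox gene Meis2 (0.34). Anks1b was nearest to the transporter gene Slc22a4 (0.56) and Meis2 (0.66), and Stard13 to Trip10 and Ero1a (0.16 each), the last of these an oxidoreductase of the endoplasmic reticulum. For scale, the median distance to all genes was 0.48 for Stard13 and 1.40 for Anks1b.

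Among the members that read lower, Enc1 and Srpx shared both nearest genes, Clec11a and C1qtnf6, at distances of 0.20 to 0.27, and Enc1 and Srpx were the closest pair of members (0.23). Ccdc88c was nearest to the lysosomal sulfatase gene Arsb (0.21) and the osteoclast protease gene Ctsk (0.31). Cdca7 was nearest to the Hippo pathway coactivator gene Wwtr1 (0.25) and the proton pump gene Tcirg1 (0.26). Rassf4 was nearest to the cathepsin gene Ctsz and to Gfap (0.46 each), and Foxs1 to the imprinted RNA H19 (0.17) and the cholesterol exporter gene Abcg1 (0.23).

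Relatives and partners of the 10 genes were taken from lists by family and pathway. Of 100 listed genes 59 were measured, and in OA minus sham at 8 weeks 1 rose and 1 fell in the limma test (10 had an unadjusted p under 0.05), where 1.51% of the 15934 probe sets rose and 1.95% fell. The 59 differences ran from -1.35 to 0.65 with a median of -0.01, against 0.01 over all probe sets. At 2 weeks 0 of the 59 passed limma and 0 had an unadjusted p under 0.05, where 0% of all probe sets passed. In the difference between the 8-week and 2-week effects 0 of 59 passed and 6 had an unadjusted p under 0.05, with 0.138% of all probe sets called. In the average over time 13 of the 59 rose and 6 fell, shares close to those of all probe sets, of which 23.4% rose and 12.0% fell.

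The relative that fell was Lhfpl2, a family member of Lhfpl3, which averaged 7.40 in OA and 8.76 in sham at 8 weeks (-1.35 ± 0.26, adjusted p = 0.0247 in limma), opposite in direction to Lhfpl3. The relative that rose was Ccdc88a, whose product Girdin is the closest relative of Daple. It averaged 13.14 in OA and 12.48 in sham at 8 weeks (0.65 ± 0.15, adjusted p = 0.0469 in limma), opposite in direction to Ccdc88c. Both calls are near the threshold. The adjusted p ranged from 0.00863 to 0.102 for Lhfpl2 and from 0.0165 to 0.371 for Ccdc88a over 20 alternatives, of which 5 and 11 ended the call.

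In the 4 lists described next 0 genes passed limma at 8 weeks, with 1 of 9, 1 of 11, 1 of 6 and 0 of 10 at an unadjusted p under 0.05 in the order given here. Of 9 kinesin-1 and ANKS scaffold relatives, the 2 smallest p-values belonged to the scaffold gene Dlg1 (0.25 ± 0.10) and the kinesin light chain gene Klc1 (0.40 ± 0.19). Of 11 RASSF and Hippo relatives they belonged to the kinase genes Stk4 (-1.15 ± 0.44) and Lats2 (0.29 ± 0.15).

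Of 6 measured relatives of Cdca7, all 6 were lower in OA at 8 weeks and 5 of 6 higher at 2 weeks, with medians of -0.18 and 0.08. Uhrf1, which recruits DNA methyltransferase 1, differed by -0.54 ± 0.24 and E2f1, a factor that drives DNA replication genes, by -0.25 ± 0.16 at 8 weeks. Both averaged under log2 4 in OA and in sham at 8 weeks and above it in both groups at 2 weeks, so they passed the filter through the 2-week arrays and their differences at 8 weeks are not exact in size. Of 10 forkhead relatives the smallest p-values belonged to Foxa2 (-1.05 ± 0.60) and Foxo3 (-0.19 ± 0.17).

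**Figure D5:**
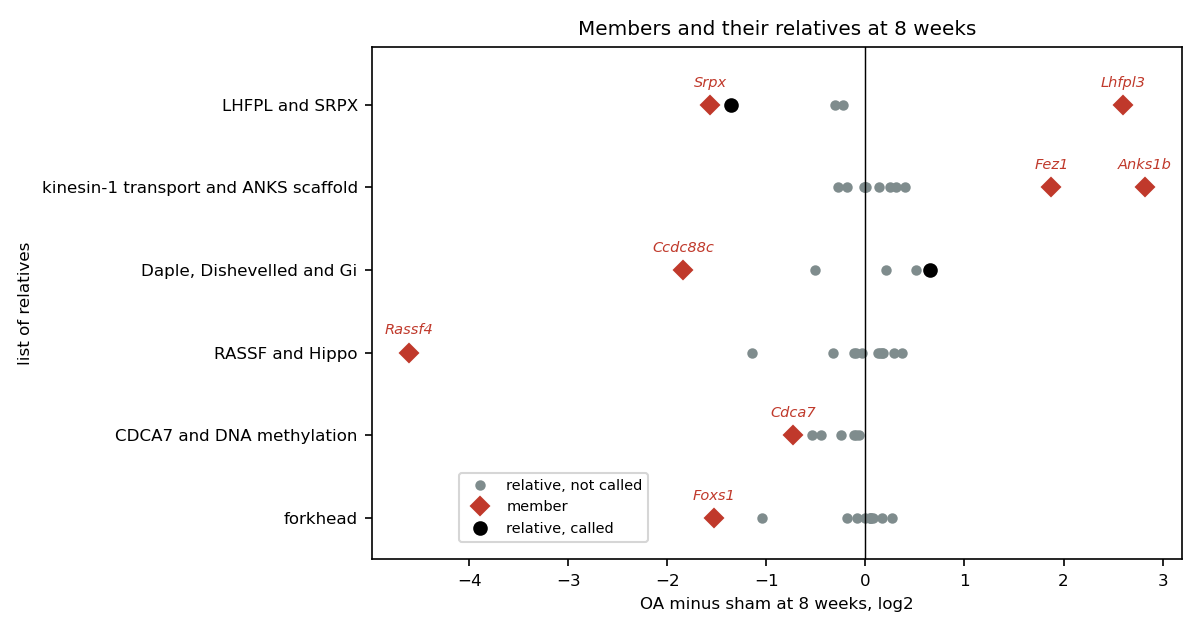
OA minus sham difference at 8 weeks in log2 units (horizontal axis) for 8 members (diamonds) and 43 of the 59 measured relatives (circles, black where past the limma test), in 6 lists. These relatives lie between -1.35 and 0.65, and the 2 that passed are Lhfpl2 and Ccdc88a.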

How the data were processed

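Total RNA from rat knee cartilage was labelled with biotin and hybridized to 1-colour Affymetrix arrays, per the labels' protocols. The deposited log2 values were made by the authors with GCRMA, per the submitters' processing notes, a method that corrects background, normalizes between arrays and summarizes probe sets, and whose version is not given in the sources used here. They were used as deposited. Values near the floor compress differences, and the number of arrays limits precision. Of 31099 probe sets, 57 controls and 15108 without a log2 value above 4 in at least 3 arrays were left out. Of all probe sets 20832 carry 1 symbol, 436 several and 9831 none. The symbols of all 10 members are in the GRCr8 gene table of RefSeq, 9 of them under the same gene ID and Lhfpl3 under another.

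A mean per group was fitted to 15934 probe sets with limma 3.58.1 in R 4.3.3 (8 residual and 1.94 prior degrees of freedom), with a Benjamini-Hochberg adjusted p under 0.05 as threshold. In simulated data the test of 8 minus 2 weeks averaged over OA and sham, run on 15934 probe sets, recovered 76% of 100 changes of 1 and 96% of 100 changes of 2 log2 units. For each size 9 false calls were counted. The members, lists and tests were chosen with earlier results of these data known. Named genes were all members, the 2 most alike genes of each, and of each list of relatives the called genes (up to 4) or otherwise the 2 with the smallest p at 8 weeks. Genes of marker lists were named after their values were seen. The result of 1 list of relatives is not reported here. Alternatives were 2 filters, 2 scalings, array weights, a variance trend, the replicate number as a block, the muscle level as a covariate, and each array left out. For members with several probe sets past the filter, the other probe sets were alternatives too. Plots were drawn with matplotlib 3.10.9 under Python 3.11.15, from tables read with pandas 2.3.3 (numpy 2.4.6). Upstream sequences came from RefSeq (GRCr8).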

Additional observations from a re-analysis of the deposited data

How the results depend on the processing

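Over 1082 values of single genes under the alternatives, 0 changed direction with a call, 19 lost a call and 2 gained one, and 9 values without a test moved by more than the spread between arrays. All 10 members kept the direction of their 8-week difference in every alternative that included them. Foxs1 was left out by the stricter filter, so this covers 19 alternatives for Foxs1 and 20 for each other member, other probe sets not counted. These differences chose the genes, so a kept direction follows in large part from the choice, and nothing is read from it. At 2 weeks Anks1b alone changed sign, to 0.06 without OA 2 weeks replicate 2. Its probe set 1379564_at also had the other sign at 2 weeks (0.03 ± 0.35). The time average of the members follows in part from how they were chosen, so nothing is read from its calls. The lost calls include those of Srpx, Ccdc88c and Rassf4 in the time average, with the muscle level as a covariate. In that fit the size of the time average was smaller in Lhfpl3, Srpx, Ccdc88c, Cdca7 and Rassf4 and not smaller in the others.

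The counts over all probe sets depended on the processing, and the cause was not tested beyond the number of probe sets or arrays used. For 8 minus 2 weeks averaged over OA and sham, 3723 rose and 1910 fell. These were 6353 and 4241 without a filter, 1212 lower with the filter at log2 6, 2871 lower with quantile normalization, 2297 and 3270 with equal medians, and 1896 and 999 with the muscle covariate. With an array left out they ranged from 3130 to 3727 and from 1647 to 1837. For OA minus sham at 8 weeks, 241 rose and 311 fell. These were 154 higher without a filter, 367 higher with quantile normalization, 120 and 163 with equal medians, 743 and 824 with array weights, and 20 and 18 with the muscle covariate. With an array left out they ranged from 47 to 408 and from 63 to 579, the lowest without sham 8 weeks replicate 3 and the highest without sham 8 weeks replicate 1. The counts moved by over 1.5 times also without sham 8 weeks replicate 2 (56 and 77), OA 8 weeks replicate 2 (117 and 111), OA 8 weeks replicate 1 (186 lower), OA 2 weeks replicate 1 (193 lower) and sham 2 weeks replicate 1 (159 and 200). At 2 weeks 0 probe sets passed limma (269 at an unadjusted p under 0.05), and with an array left out 0 to 1 rose and 0 fell.

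The replicate numbers share no stated origin. The deviations of same-numbered arrays correlated by -0.50 to 0.53 over 18 pairs, 9 of them above 0.1, and 5 of 12 arrays correlated best with their own number. With the replicate number as a block, 4051 rose and 2017 fell in the time average, 289 rose and 364 fell at 8 weeks, and 21 passed in the difference between the effects, against 22 without it. It changed no call of a named relative.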
